A study of Mus musculus with 26 samples.

Results

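Messenger RNA of 10 transcription factor genes that act in fat cell formation was examined in brown adipose tissue (BAT). They are 4 genes of the C/EBP family, Cebpa, Cebpb, Cebpd and Cebpg, and 6 of the Krüppel-like factor (KLF) family, Klf2, Klf3, Klf4, Klf5, Klf6 and Klf15. The members were chosen by name, with earlier results of these data known, among 50686 genes listed in the counts. Of the 10, 9 were among the 17286 genes with enough reads to test, and Klf5 was not.

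BAT was taken from 26 male C57BL/6J mice in 4 groups, all kept for 2 weeks at thermoneutrality before sampling. The groups were 7 WT control littermates at 30 °C, 7 mice labelled Afadin KO at 30 °C, 5 WT control littermates after 6 h at 5 °C, and 7 mice labelled Afadin KO after 6 h at 5 °C. In the KO mice, floxed Mllt4 alleles, which encode the scaffold protein Afadin, were to be deleted by Cre under the Adiponectin promoter, which is active in mature adipocytes of brown and white fat and not in the other cells of the tissue. The labels call the depot supraclavicular. The labelled temperature of 30 °C is used here.

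C/EBP proteins are leucine zipper factors that bind DNA as dimers. In the textbook sequence of adipogenesis, C/EBPβ and C/EBPδ appear first after a hormonal stimulus, and they switch on C/EBPα together with PPARγ, the pair that maintains the mature adipocyte. KLFs are zinc finger factors of GC-rich sites. Klf4, Klf5, Klf6 and Klf15 promote adipocyte formation, while Klf2 and Klf3 restrain it. In BAT, cold acts through noradrenaline, β-adrenergic receptors and cyclic AMP, which activates factors of the CREB family at cyclic AMP response elements (CREs).

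Total counts per mouse ran from 12705969 to 25732258, with group medians between 16750654 and 17684274. Levels are given as CPM, counts scaled to a common library size with TMM factors. Log2 fold changes come from edgeR's quasi-likelihood test, their SE is the one implied by the test statistic, and p-values were adjusted by Benjamini-Hochberg over all 17286 genes with a threshold of 0.05. Afdn, the targeted gene, was not lower in the KO label at 30 °C (195 ± 27.4 against 196 ± 21.0 CPM, SD, n = 7 each) and had 58.5 ± 4.15 CPM (n = 7) against 73.5 ± 4.27 (n = 5) at 5 °C. These counts cover the whole gene in bulk tissue, which also holds cells where the Cre is not active. They therefore do not measure deletion in adipocytes. The paper reports that the cold rise of Afadin protein in BAT was reduced in the knockout mice. The groups are named here by their labels. Brown adipocyte markers were abundant in every mouse (summed CPM of 12 markers from 7215 to 36664), and Ucp1, the uncoupling protein that makes heat, rose from 985 ± 234 to 16005 ± 552 CPM with cold in control mice. Skeletal muscle markers varied between mice within every group (summed CPM of 8 markers from 0.815 to 7545). In bulk tissue, fewer cells of a type and less RNA per cell cannot be told apart.

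Cold moved most of the factors, and in opposite directions. In control mice 6 of the 9 tested members rose and 1 fell, 7 of 9 in all, where 65.0% of all genes passed the threshold (31.6% higher, 33.4% lower). With the KO label the same 6 rose and the same gene fell, against a background of 68.6% (33.7% higher, 34.9% lower). The count of members was thus near that of genes at large, and it is the sizes and directions of single members that are described here. Cebpa fell, whereas Cebpb, Cebpd, Cebpg, Klf4, Klf6 and Klf15 rose. Klf2 and Klf3 did not pass the threshold in either genotype. With library size alone as the scaling, 5 members rose and 2 fell in the KO label, where Cebpg lost its call (0.11, Benjamini-Hochberg adjusted p = 0.403 by edgeR's quasi-likelihood test) and Klf3 gained one as lower.

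**Figure D1:**
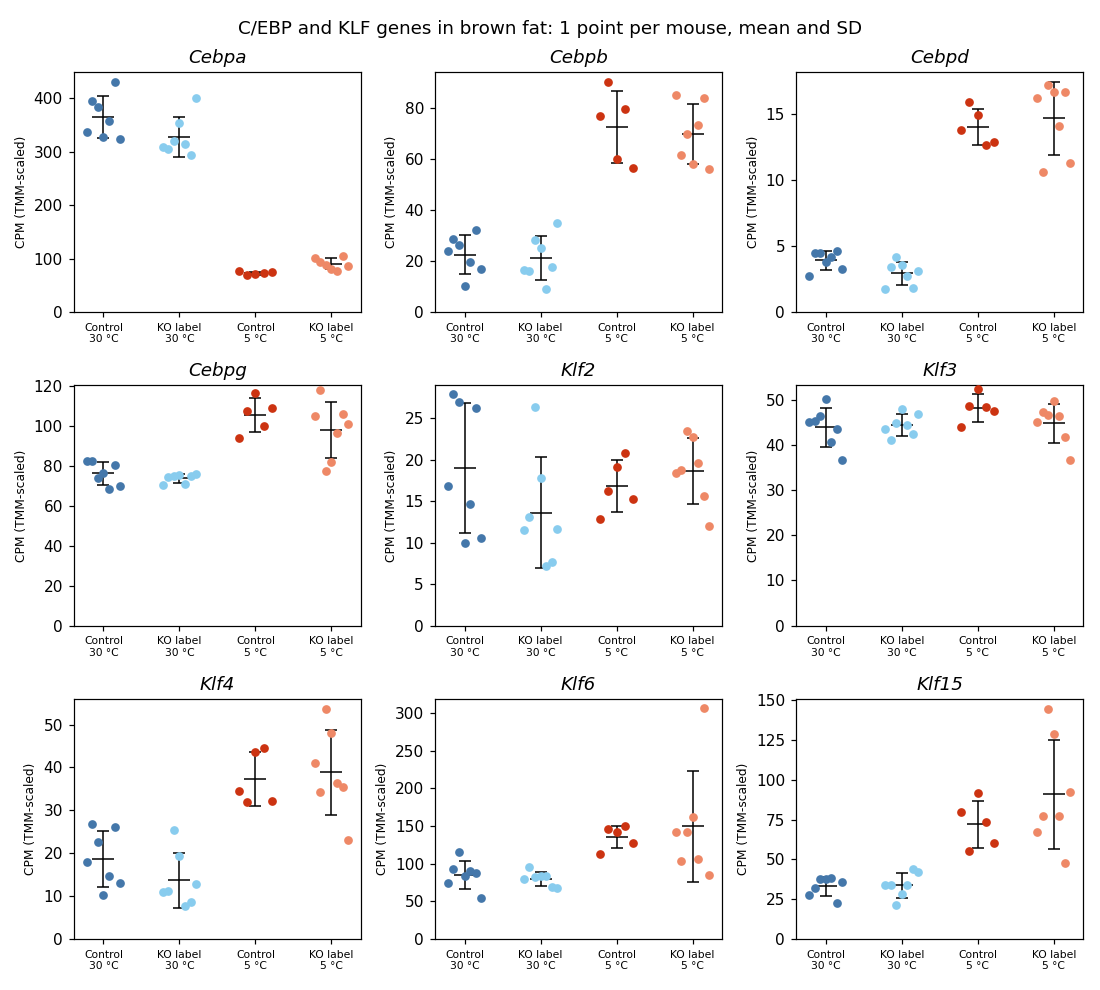
CPM of the 9 tested members in each of the 26 mice, with 1 panel per gene, a linear axis from 0, 1 point per mouse, and black lines for the group mean and SD. Cebpa sits at 294 CPM or more in every mouse at 30 °C and at 105 CPM or less in every mouse at 5 °C, while Cebpb, Cebpd, Cebpg and Klf15 are higher in every mouse at 5 °C than in any mouse of the same genotype at 30 °C.

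Cebpa (ENSMUSG00000034957.10, chromosome 7 of mm10 from 35119293 to 35121928, plus strand, a single exon) encodes the factor that keeps adipocytes differentiated. It was by far the highest member at thermoneutrality. In control mice at 30 °C it ran from 325 to 431 CPM with a median of 357, and in the KO label from 294 to 401 with a median of 314. After cold the 5 control mice had 76.4, 68.4, 70.8, 73.2 and 74.5 CPM. Mice labelled KO ran from 77.6 to 105 after cold with a median of 87.1. No mouse at 5 °C came near the lowest mouse at 30 °C. The log2 fold change was -2.33 (SE 0.09, Benjamini-Hochberg adjusted p = 4.15e-17 by edgeR's quasi-likelihood test) in control mice, or 0.199 of the level at 30 °C, and -1.86 (SE 0.08) in the KO label. Of all genes tested, 95.9% changed less in control mice.

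Cebpb (ENSMUSG00000056501.3, chromosome 2 from 167688915 to 167690418, plus strand, a single exon) encodes an early adipogenic factor that cyclic AMP is known to induce. At 30 °C it ran from 10.1 to 32.3 CPM (median 23.8) in control mice and from 9.16 to 34.8 (median 17.6) in the KO label, so that mice of the same group differed by more than 3 times at thermoneutrality. After cold the 5 control mice had 76.8, 90.2, 60.1, 79.5 and 56.5 CPM, and the KO label ran from 56.2 to 85.0 (median 70.0). All cold mice were above all mice at 30 °C. Cebpb rose by a log2 fold change of 1.69 (SE 0.25, Benjamini-Hochberg adjusted p = 1.05e-06 by edgeR's quasi-likelihood test) in control mice and of 1.73 (SE 0.23) in the KO label.

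Cebpd (ENSMUSG00000071637.5, chromosome 16 from 15887286 to 15891031, plus strand, a single exon), the partner of Cebpb in the early phase of adipogenesis, was low at thermoneutrality. It ran from 2.71 to 4.59 CPM in control mice and from 1.71 to 4.13 in the KO label. After cold the control mice had 13.8, 15.9, 14.9, 12.6 and 12.8 CPM, and the KO label ran from 10.6 to 17.1 (median 16.1). The groups did not overlap, and the log2 fold change was 1.83 (SE 0.17, Benjamini-Hochberg adjusted p = 5.56e-10 by edgeR's quasi-likelihood test) in control mice and 2.33 (SE 0.17) in the KO label. Cebpg (ENSMUSG00000056216.9, chromosome 7 from 35046422 to 35056573, minus strand, 3 separate stretches of exon) encodes a C/EBP that lacks a transactivation domain and serves as a dimer partner. It rose far less, from 76.2 ± 5.79 to 105 ± 8.52 CPM in control mice (SD, n = 7 and 5, log2 fold change 0.47, SE 0.08) and from 73.7 ± 2.20 to 97.7 ± 14.1 CPM in the KO label (n = 7 each, 0.41, SE 0.07), a rise that did not pass with library size alone. Its cold groups still lay above its groups at 30 °C in both genotypes. Groups that do not overlap, in either direction, were found for 46.4% of all genes in control mice and 40.4% in the KO label. Among the members they were found for 6 of 9 (all 4 C/EBP genes, Klf4 and Klf15) and 5 of 9 (the same without Klf4).

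With Cebpa falling and the others rising, the make-up of C/EBP messenger RNA turned over within 6 h. Levels of different genes are compared here per kb of exon. At 30 °C Cebpa stood at 139 ± 15.2 CPM per kb in control mice and 124 ± 14.1 in the KO label, and Cebpb at 14.96 ± 5.03 and 14.0 ± 5.78 (SD, n = 7 each). After cold Cebpa was at 27.6 ± 1.19 and 34.2 ± 3.90 CPM per kb and Cebpb at 48.3 ± 9.34 and 46.4 ± 7.82 (n = 5 and 7). The ratio of Cebpb to Cebpa per kb thus went from 0.106 ± 0.028 (range 0.0540 to 0.131) to 1.76 ± 0.38 (range 1.33 to 2.31) in control mice. The ratio in mice labelled KO went from 0.111 ± 0.037 (range 0.0511 to 0.155) to 1.36 ± 0.18 (range 1.15 to 1.65). Every mouse at 30 °C held more Cebpa than Cebpb per kb, and every mouse at 5 °C held more Cebpb per kb. The crossing depends on the exon lengths used, 2636 bases for Cebpa and 1504 for Cebpb. In CPM after cold, Cebpa and Cebpb had means of 72.7 and 72.6 in control mice and 90.3 and 69.7 in the KO label.

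**Figure D2:**
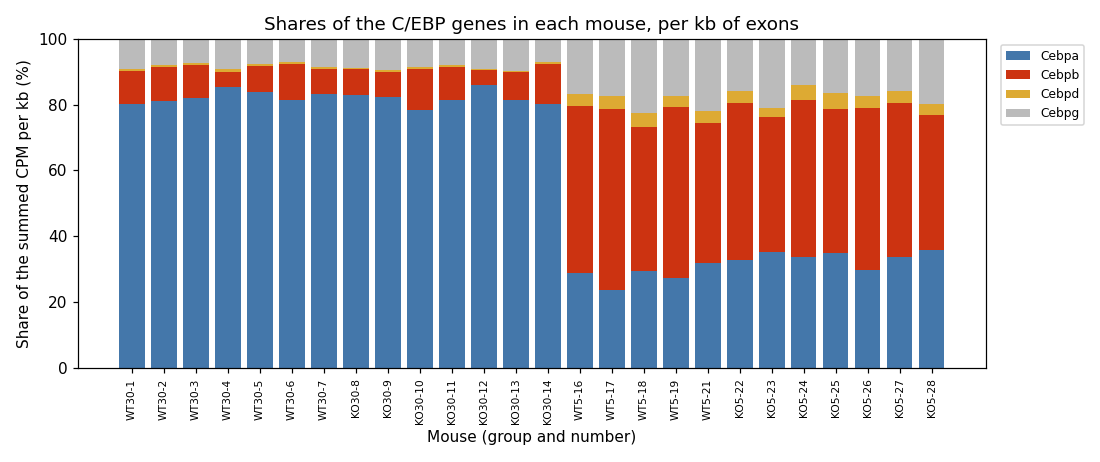
Share of each gene in the summed CPM per kb of the 4 C/EBP genes, in percent on the vertical axis, with 1 bar per mouse named by its label (WT30 and KO30 at 30 °C, WT5 and KO5 at 5 °C). Cebpa takes from 78.5% to 86.0% of the sum in the mice at 30 °C and from 23.8% to 35.9% in the mice at 5 °C, where Cebpb takes from 41.0% to 54.9%.

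The summed C/EBP level per kb was also lower in cold mice, at 98.3 ± 8.33 against 168 ± 20.3 CPM per kb in control mice and at 101.9 ± 12.1 against 152 ± 19.3 in the KO label. Cebpd kept the smallest share in every group, 0.623% ± 0.084 in control mice at 30 °C and 3.81% ± 0.38 at 5 °C (n = 7 and 5). Cebpg took 8.13% ± 0.89 and 19.2% ± 2.78.

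Part of the exons of Cebpb and Cebpd is also covered by a gene on the opposite strand, and the sources used here do not say whether the counting used strand. Tmem189 covers 312 bases, 20.7% of the Cebpb exon, and Spidr covers 562 of the 3746 bases of the Cebpd exon. With cold in control mice these neighbours had log2 fold changes of -0.57 and -0.25, opposite in sign to those of the members. An antisense gene, Gm45091, covers 51 bases (1.93%) of Cebpa. Its mean level was 0.905 CPM. Unlike the 2 neighbours above, it had the same sign as its member with cold. Its log2 fold change was -2.04 in control mice and -1.69 in the KO label.

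The promoters of Cebpa and Cebpb are shown because these members went furthest in opposite directions per kb. Each is the 250 bases before the RefSeq start (GRCm38.p6), 5′ to 3′ on the gene's strand, chr7:35119043-35119292 and chr2:167688665-167688914, with the letters TGACG (the first 5 of the 8 letters of a CRE, either strand) in capitals.
Cebpa: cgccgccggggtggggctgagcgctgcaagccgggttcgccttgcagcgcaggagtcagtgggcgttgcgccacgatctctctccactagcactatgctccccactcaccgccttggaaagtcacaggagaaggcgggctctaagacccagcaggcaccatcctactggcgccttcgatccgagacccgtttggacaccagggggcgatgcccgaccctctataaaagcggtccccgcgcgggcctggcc
Cebpb: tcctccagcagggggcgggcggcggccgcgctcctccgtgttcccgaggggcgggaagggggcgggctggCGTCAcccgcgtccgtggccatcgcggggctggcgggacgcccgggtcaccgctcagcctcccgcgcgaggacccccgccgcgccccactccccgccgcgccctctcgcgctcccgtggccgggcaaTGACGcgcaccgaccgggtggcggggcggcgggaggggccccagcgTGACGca
Counted from the start, Cebpb holds the letters 3 times, at -180 to -176, -53 to -49 and -7 to -3, and Cebpa holds none. Cebpa has a TATAAA stretch at -30 to -25. Windows with TGACG on either strand made up 17.8% of 32851 RefSeq promoters. A match of letters is a description of the window and not a bound site.

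The 3 tested KLF members that promote adipogenesis rose with cold, with smaller fitted values than Cebpb and Cebpd in the same genotype. Klf15 (ENSMUSG00000030087.11, chromosome 6 from 90462576 to 90475238, plus strand), a factor of amino acid and glucose metabolism as well as of fat cells, ran from 22.3 to 38.2 CPM (median 35.8) in control mice and from 21.1 to 44.1 (median 33.9) in the KO label at 30 °C. After cold the control mice had 79.6, 55.3, 91.7, 73.2 and 60.1 CPM. Mice labelled KO had a wide spread after cold, from 47.9 in the mouse KO5-27 to 145 in KO5-24 (median 77.4). KO5-24 and KO5-25 (129 CPM) had the most Klf15 and also the highest sums of skeletal muscle markers in the group. These sums were 3787 and 7545 CPM, against 1.75 to 2573 in the other mice of the group. Whether Klf15 and the muscle markers go together was not tested. Even the lowest cold mouse was above all mice at 30 °C. The log2 fold change was 1.12 (SE 0.21, Benjamini-Hochberg adjusted p = 3.98e-05 by edgeR's quasi-likelihood test) in control mice and 1.42 (SE 0.20) in the KO label.

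Klf4 (ENSMUSG00000003032.8, chromosome 4 from 55527143 to 55532466, minus strand), which acts upstream of Cebpb in cultured preadipocytes and is also an endothelial and myeloid factor, ran from 10.2 to 26.9 CPM (median 17.9) in control mice at 30 °C. Mice labelled KO at 30 °C ran from 7.70 to 25.3 (median 11.1). After cold the control mice had 34.4, 31.9, 43.6, 44.5 and 32.1 CPM, all above the mice at 30 °C. After cold the KO label ran from 23.1 to 53.7 (median 36.3), and the lowest mouse, KO5-28, lay within the range at 30 °C. Klf4 rose by a log2 fold change of 0.99 (SE 0.25, Benjamini-Hochberg adjusted p = 0.00131 by edgeR's quasi-likelihood test) in control mice and of 1.51 (SE 0.24) in the KO label.

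Klf6 (ENSMUSG00000000078.6, chromosome 13 from 5861482 to 5870394, plus strand), known for repressing the preadipocyte gene Dlk1, ran from 54.5 to 115 CPM in control mice and from 68.2 to 95.1 in the KO label at 30 °C. After cold the control mice had 113, 145, 142, 149 and 127 CPM. The groups overlapped in both genotypes, in the KO label because KO5-28 was at 85.5 CPM. The mouse KO5-27 stood apart with 306 CPM, against 85.5 to 161 in the other 6 of its group. The same mouse had the highest sum of neutrophil markers (74.3 CPM over 7 genes, against 6.04 to 28.4 in the other 6). It also had the highest sum of red blood cell markers (1498 CPM, against 517 to 1303 in the other 6). Whether Klf6 goes together with either sum was not tested. Klf6 rose by 0.66 (log2, SE 0.21, Benjamini-Hochberg adjusted p = 0.00723 by edgeR's quasi-likelihood test) in control mice and by 0.90 (SE 0.19) in the KO label.

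The 2 KLFs that restrain adipogenesis did not pass the threshold with cold. Klf2 (ENSMUSG00000055148.7, chromosome 8 from 72319033 to 72321656, plus strand), better known as the flow-induced factor of endothelial cells, had 19.0 ± 7.85 CPM at 30 °C and 16.8 ± 3.14 at 5 °C in control mice (SD, n = 7 and 5). Mice labelled KO had 13.6 ± 6.65 and 18.7 ± 3.98 CPM (n = 7 each). Its spread at 30 °C, from 9.97 to 27.9 and from 7.19 to 26.4 CPM, took in every cold mouse of the same genotype. The log2 fold change was -0.18 (95% interval -0.75 to 0.40) in control mice and 0.46 (-0.07 to 0.99) in the KO label, and these intervals leave room for a change of either sign. Without the mouse KO30-10 the value in the KO label was 0.70 (Benjamini-Hochberg adjusted p = 0.0122 by edgeR's quasi-likelihood test). Klf3 (ENSMUSG00000029178.14, chromosome 5 from 64803388 to 64832901, plus strand), a repressor that recruits CtBP, varied little between groups, with means of 44.1, 44.5, 48.3 and 44.9 CPM. Its interval was narrow, -0.02 to 0.28 in control mice and -0.12 to 0.15 in the KO label. Without the mouse WT30-4 Klf3 passed the threshold in control mice (0.17, Benjamini-Hochberg adjusted p = 0.0453 by edgeR's quasi-likelihood test), and with library size alone it was lower in the KO label (-0.31, adjusted p = 0.000231 by the same test), where the median of all genes was also displaced, to -0.34. Klf5 (ENSMUSG00000005148.7, chromosome 14 from 99298691 to 99315036, plus strand), an activator downstream of Cebpb and Cebpd in cultured adipocytes, had 1 to 5 reads in a mouse and 76 in all 26. It was tested only with no filter on low counts, where its log2 fold change with cold was 0.44 (SE 0.38, Benjamini-Hochberg adjusted p = 0.479 by edgeR's quasi-likelihood test) in control mice and 0.96 (SE 0.39, unadjusted p = 0.0427, adjusted p = 0.100) in the KO label. No difference in Klf5 passed the threshold at this depth.

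**Figure D3:**
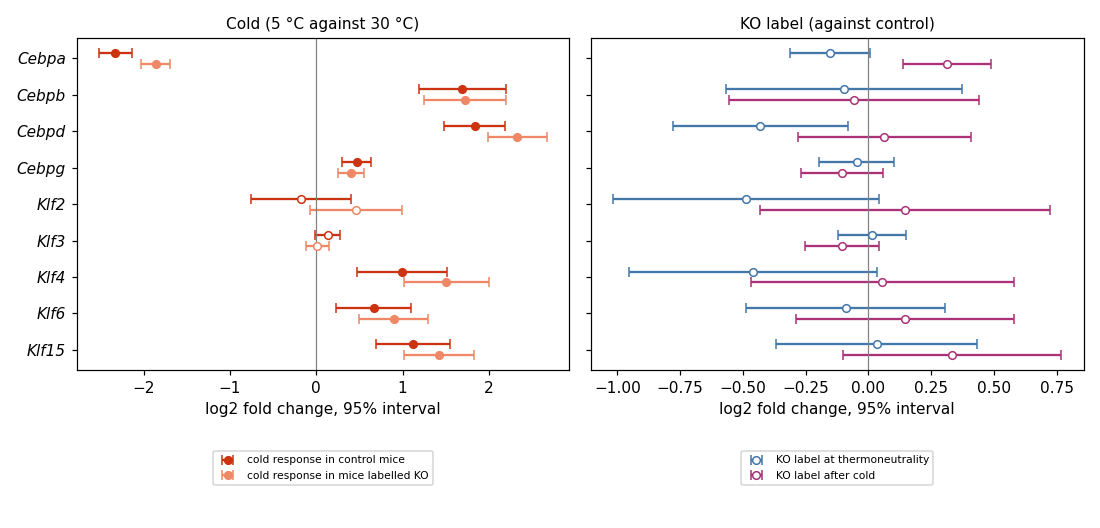
Log2 fold changes of the 9 tested members with 95% intervals, for cold within each genotype (left) and for the KO label within each temperature (right). Filled points pass an adjusted p of 0.05 and open points do not. On the left 7 members are filled in each genotype, with Cebpa alone below 0 among the filled points, and on the right no point is filled.

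The promoters of Klf4 and Klf15, the KLF members with the largest rises, and of Klf2, which did not pass, are set side by side because they share the letters TGACG with Cebpb. They are the RefSeq windows chr4:55532476-55532725, chr6:90462326-90462575 and chr8:72318812-72319061 of GRCm38.p6, marked as above.
Klf4: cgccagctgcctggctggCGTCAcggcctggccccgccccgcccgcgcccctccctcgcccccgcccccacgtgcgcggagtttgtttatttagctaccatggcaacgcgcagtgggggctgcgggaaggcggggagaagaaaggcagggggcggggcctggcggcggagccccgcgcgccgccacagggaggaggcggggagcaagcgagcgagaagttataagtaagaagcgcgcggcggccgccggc
Klf15: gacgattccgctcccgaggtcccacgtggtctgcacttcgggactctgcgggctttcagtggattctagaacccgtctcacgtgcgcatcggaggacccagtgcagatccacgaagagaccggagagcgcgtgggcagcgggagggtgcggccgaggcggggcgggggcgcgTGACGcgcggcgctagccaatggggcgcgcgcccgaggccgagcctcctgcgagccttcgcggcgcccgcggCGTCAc
Klf2: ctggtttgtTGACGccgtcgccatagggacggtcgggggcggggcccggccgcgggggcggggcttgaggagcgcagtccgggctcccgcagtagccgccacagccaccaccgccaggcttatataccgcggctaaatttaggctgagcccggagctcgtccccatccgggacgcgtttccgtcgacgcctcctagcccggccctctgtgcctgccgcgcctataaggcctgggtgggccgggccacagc
Klf15 holds TGACG 2 times, at -78 to -74 and at -6 to -2 from the start. Klf4 and Klf2 hold it once, at -232 to -228 and -241 to -237. Windows were found for 8 of the 10 members, and 4 of those 8 hold the letters, against 17.8% of all promoters. The 8 windows have 64.8% to 81.6% of G and C, and the set of all promoters was not matched for this. Cebpg, Klf3 and Klf6 hold none, although Cebpg and Klf6 also rose. The full CRE, TGACGTCA, is in none of the 8 windows and in 1.55% of all promoters. CACGTG, the core of an E-box, is in the windows of Klf4, Klf6 and Klf15 and in 6.02% of all promoters. Windows of Cebpd and Klf5 were not used here.

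Placed in order per kb, the members fell into few distinct steps. At 30 °C in control mice Cebpa came first and was apart from all others. Klf6 (19.5 ± 4.22 CPM per kb), Cebpb (14.96), Cebpg (13.5), Klf15 (11.9), Klf2 (10.3), Klf4 (6.15) and Klf3 (3.92) followed, each overlapping with the next in order, and Cebpd (1.05 ± 0.19) and Klf5 (0.0318 ± 0.012) came last, each apart. After cold Cebpb was first in control mice and did not overlap with Klf6 (30.8 ± 3.47), which was followed by Cebpa (27.6) and Klf15 (25.8) with overlapping ranges. In the KO label the order was the same at 30 °C. After cold it had Cebpa (34.2 ± 3.90) ahead of Klf6 (34.1 ± 16.8), and Cebpb overlapped with Cebpa there.

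Mice labelled KO were compared with controls at each temperature. This is a comparison of labels, because Afdn counts were not lower in the KO label at 30 °C and Afadin protein was not measured in these libraries. At 30 °C edgeR's quasi-likelihood test called no member, where 0.0810% of all genes did. DESeq2 also found 0. Cebpd was the only member with an unadjusted p below 0.05, at -0.43 (SE 0.17, Benjamini-Hochberg adjusted p = 0.520 by edgeR's quasi-likelihood test), 2.91 ± 0.90 against 3.92 ± 0.71 CPM (SD, n = 7 each). Klf2 and Klf4 had means of 13.6 and 13.7 CPM in the KO label against 19.0 and 18.8 in controls, with log2 fold changes of -0.49 (95% interval -1.02 to 0.04) and -0.46 (-0.95 to 0.03). Groups of all 9 members overlapped, where 0.249% of all genes did not. The narrowest interval was that of Klf3, from -0.12 to 0.15.

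After cold edgeR's quasi-likelihood test again called no member, where 0.139% of all genes did. Cebpa was the only member whose groups did not overlap, with all 7 KO mice (77.6 to 105 CPM) above all 5 controls (68.4 to 76.4). Across all genes, 0.330% lay apart in that direction and 1.11% in either. The log2 fold change of Cebpa was 0.31 (95% interval 0.14 to 0.49, SE 0.09, Benjamini-Hochberg adjusted p = 0.123 by edgeR's quasi-likelihood test), and its unadjusted p of 0.00116 was the only one below 0.05 among the members. DESeq2's Wald test called it (0.33, adjusted p = 0.0299). The other members had values between -0.11 (Cebpg and Klf3) and 0.33 (Klf15, 95% interval -0.10 to 0.77).

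The cold responses of the genotypes were then compared directly, as an interaction. Cebpa alone passed among the 9 members, where 1.16% of all genes did and 0.289% were higher, with a fall that was smaller in the KO label by a log2 value of 0.47 (SE 0.12, 95% interval 0.23 to 0.70, Benjamini-Hochberg adjusted p = 0.0428 by edgeR's quasi-likelihood test). It is made up of a level 0.15 lower at 30 °C and 0.31 higher after cold in the KO label, neither of which passed on its own. The call is near its threshold. Leaving out 1 mouse at a time, it held without WT30-1, WT30-4, WT30-7, KO30-14, KO5-25, KO5-26 or KO5-28 and was lost without any one of the other 19, with values from 0.42 to 0.51 and Benjamini-Hochberg adjusted p from 0.0217 to 0.0958 by edgeR's quasi-likelihood test. It was also lost with library size alone (0.28, adjusted p = 0.422) and with no filter on low counts (0.46, adjusted p = 0.102). Cebpd had a difference of similar size, 0.49 (95% interval 0.0036 to 0.98, Benjamini-Hochberg adjusted p = 0.304 by edgeR's quasi-likelihood test). The intervals of the remaining 7 members all included 0, the widest being that of Klf2 (-0.15 to 1.42) and the narrowest that of Klf3 (-0.32 to 0.08).

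Within groups the members did not vary alike. The spread of Klf2 between mice was 41.3% and 48.9% of its mean at 30 °C in control mice and the KO label, and that of Klf4 was 34.8% and 46.5%, against 9.84% and 5.44% for Klf3. Klf2 and Klf4 rose and fell together from mouse to mouse. In control mice at 30 °C Pearson's r of their log2 CPM was 0.974 (exact permutation p = 0.000595, adjusted 0.0268) and Spearman's rho 0.964 (exact permutation p = 0.00278), with r = 0.965 without the 2 mice farthest from the median. In the KO label at 30 °C r was 0.976 (exact permutation p = 0.000992, adjusted 0.0268) and rho 0.964 (exact permutation p = 0.00278), with r = 0.924 without the 2 farthest mice. In the KO label after cold r was 0.938 (exact permutation p = 0.00456, adjusted 0.0893), rho was 0.821 (exact permutation p = 0.0341), and r was 0.715 without the 2 farthest mice. The p-values are two-sided and were adjusted over 108 relations, 36 pairs of members in 3 groups of 7 mice. The 5 control mice after cold were too few to test.

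Besides Klf2 with Klf4, the adjusted p was below 0.05 for Cebpb with Klf4 (r = 0.956, exact permutation p = 0.000397, adjusted 0.0268; rho 0.964, exact permutation p = 0.00278) and for Cebpb with Klf2 (r = 0.902, exact permutation p = 0.000992, adjusted 0.0268; rho 0.893, exact permutation p = 0.0123), both in control mice at 30 °C. Without the 2 farthest mice these were 0.954 and 0.878. In the KO label at 30 °C the values were 0.730 and 0.661, and after cold 0.282 and 0.107. The control mice with high Klf2 at thermoneutrality were thus also those with high Klf4 and Cebpb.

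**Figure D4:**
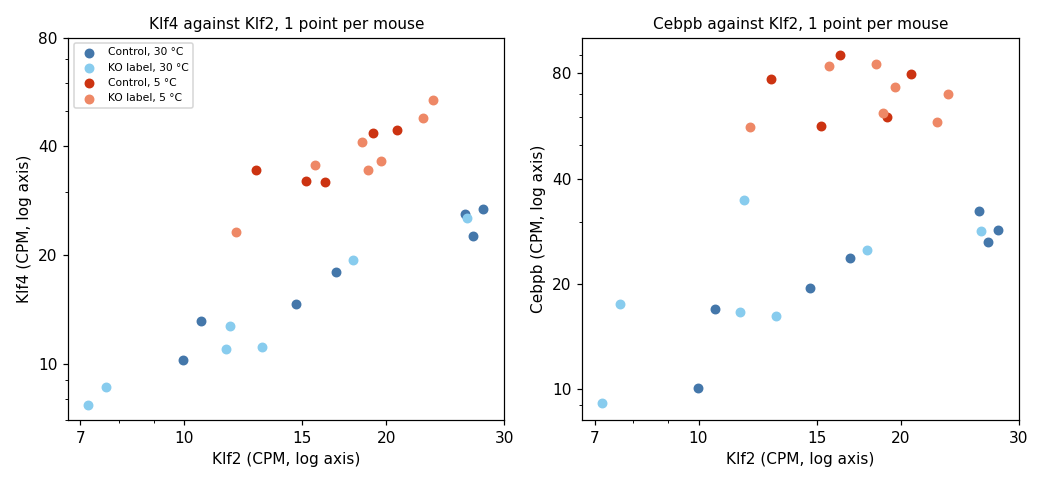
Klf4 (left) and Cebpb (right) against Klf2 in CPM on log axes, with 1 point per mouse and colours for the 4 groups. Klf4 has an r with Klf2 of 0.974 in control mice and 0.976 in the KO label at 30 °C, and the cold mice lie higher in Klf4. Cebpb has an r with Klf2 of 0.902 in control mice at 30 °C and of 0.107 in the KO label at 5 °C.

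Genes most like each member were ranked by Pearson's r of log2 CPM over the 26 mice after subtraction of the group means, given as a description. Klf2 and Klf4 led each other's lists (r = 0.955, Spearman's rho 0.917), and Id1, an inhibitor of helix-loop-helix factors, was next in both (0.905 and 0.890). Next came Plk3, a stress-responsive kinase, for Klf2 (0.898), and Dusp8, a phosphatase of MAP kinases, for Klf4 (0.872). For Cebpb they were G0s2, an inhibitor of the lipase ATGL (0.880), the immediate early gene Arc (0.873) and Gm38357 (0.847). For Klf6 they were Srgn, the proteoglycan of secretory granules in blood cells (0.932), Uap1 (0.897) and Lilr4b, a receptor of leukocytes (0.896). The mouse KO5-27 with its high Klf6 is among the points, and within control mice at 30 °C the r of Klf6 with Srgn was 0.835. Klf15 was closest to Dhtkd1, an enzyme of lysine breakdown in mitochondria (0.857), Acss3 (0.822) and Zfp629 (0.806). Cebpg was closest to Cldn12, Stk4 and Nupr1 (0.856, 0.824 and 0.820). Values were lower for Klf3 (Car4, Gpkow and mt-Nd2, 0.771 to 0.744), Cebpd (Gm12734, Fkbp1a and Ercc1, 0.739 to 0.722) and Cebpa (Junb, Gm45206 and Tgtp1, 0.668 to 0.666). Klf2 with Klf4 had r from 0.789 to 0.976 within the 4 groups, but some other pairs did not hold in every group. In control mice r was 0.019 for Klf15 with Zfp629 at 30 °C and -0.814 for Cebpa with Junb at 5 °C. In the KO label it was -0.109 for Klf6 with Uap1 at 30 °C and -0.385 for Cebpb with Gm38357 at 5 °C.

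Other genes of the pathway were counted in lists, each beside a median log2 fold change over all genes of -0.01 in control mice and -0.03 in the KO label. Of all genes, 31.6% rose and 33.4% fell with cold in control mice, and 33.7% rose and 34.9% fell in the KO label. The counts of the lists are descriptions to be set beside these shares. Named genes have their values in control mice. Among regulators of C/EBP proteins, 8 of 10 rose with cold and 2 fell in control mice (median 0.37), and 6 rose and 2 fell in the KO label (median 0.33). Trib1, a pseudokinase that brings C/EBPα to degradation by Cop1, went from 23.9 ± 3.80 to 116 ± 8.42 CPM (SD, n = 7 and 5, log2 fold change 2.29, SE 0.11). The related Trib3 rose by 1.77 (SE 0.27), and Calr, calreticulin, which binds C/EBP messenger RNAs, by 0.85 (SE 0.05). Among adipogenic partner factors 2 of 15 rose and 8 fell in control mice (median -0.66), and 2 rose and 9 fell in the KO label (median -0.35). Srebf1, the master factor of lipogenesis, fell with a log2 fold change of -3.38 (SE 0.26), Zfp467 of -3.01 (SE 0.16) and Stat5a of -2.04 (SE 0.13). Pparg, which acts together with Cebpa, had a value of -0.09 (SE 0.07) and did not pass in control mice. In the KO label Pparg fell with -0.28 (SE 0.07, Benjamini-Hochberg adjusted p = 0.000666 by edgeR's quasi-likelihood test).

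Inhibitors of adipogenesis were split, with 3 rising and 3 falling of 10 tested in control mice (median 0.17) and 3 rising and 4 falling in the KO label (median -0.28). Foxo1 rose by 1.79 (SE 0.16), and Zfp521 and Wnt5a fell with -1.35 (SE 0.19) and -1.04 (SE 0.15). Of the adipocyte genes known to be bound by C/EBPs, 5 of 14 rose and 5 fell in control mice (median 0.07), and 8 rose and 4 fell in the KO label (median 0.45). Lep, the gene of leptin, dropped from 254 ± 34.7 to 5.25 ± 3.12 CPM (SD, n = 7 and 5, log2 fold change -5.61, SE 0.49), and Dgat2, of triglyceride synthesis, from 2199 ± 494 to 263 ± 38.5 CPM (-3.07, SE 0.16). Lpl, lipoprotein lipase, went up from 1939 ± 276 to 8046 ± 1003 CPM (2.05, SE 0.12).

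Among 12 other KLF and SP genes tested, 3 rose and 4 fell in control mice (median -0.28) and 3 rose and 6 fell in the KO label (median -0.32), with Klf9 up (0.95, SE 0.10) and Klf10 and Sp4 down (-1.13, SE 0.20, and -1.12, SE 0.14). Of 2 other genes tested that carry a C/EBP symbol or alias, Cebpz rose (1.61, SE 0.08) and Ddit3 had -0.18 (SE 0.19) in control mice. In the KO label 1 rose and 1 fell. The symbol of Cebpz does not by itself make it a leucine zipper factor of this family. Of 9 genes of amino acid and glucose use that have been linked to Klf15, 2 rose and 4 fell in each genotype (medians -0.29 in control mice and -0.34 in the KO label). The genes were not split by the direction in which Klf15 acts on each, so these counts do not measure its activity. Gpt, alanine aminotransferase, had -1.17 (SE 0.10), Slc2a4, the insulin-responsive glucose transporter, -1.02 (SE 0.14) and Bckdhb, of branched-chain amino acid breakdown, 0.78 (SE 0.10).

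Of 10 flow-responsive genes of endothelial cells linked to Klf2 and Klf4, 6 rose and 1 fell in control mice (median 0.40), and 8 rose and 1 fell in the KO label (median 0.83). They include Ackr3 (2.51, SE 0.21), Edn1 (1.78, SE 0.22) and Angpt2 (1.53, SE 0.17). The list was not split by the direction in which Klf2 or Klf4 acts on each gene. These counts are therefore not a measure of the activity of either factor. The summed CPM of 10 endothelial markers was also higher after cold, from 615 to 789 at 30 °C and 957 to 1121 at 5 °C in control mice, with 6 of the 10 markers rising and 4 falling, and none at 0. In the KO label the endothelial sums overlapped, with 702 to 912 at 30 °C and 813 to 1147 at 5 °C, and 5 markers rose and 3 fell. The summed CPM of 7 neutrophil markers in control mice was 2.06 to 6.65 at 30 °C and 6.78 to 14.3 at 5 °C. In the KO label it was 1.51 to 3.98 and 6.04 to 74.3. Ly6g was at 0 in all mice at 30 °C. The part of these cells in the changes of Klf4, Klf6, Cebpb and Cebpd was not tested. None of the 81 tested genes on these 8 lists was called by edgeR for the KO label at either temperature or for the difference of the cold responses. An unadjusted p below 0.05 was found for 4 of them at 30 °C, 10 after cold and 7 for the difference. These are 4.94%, 12.3% and 8.64%, against 7.65%, 13.4% and 16.2% of all genes. DESeq2 called 0, 1 (Stat5b) and 0.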

How the data were processed

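RNA was extracted with Trizol, rRNA was depleted and stranded libraries were read as single ends. Per the labels, STAR 2.5.2b was used for alignment to mm10 and featureCounts 1.5.2 for the counts of each gene. The deposited values are counts without normalization, and the strand setting of the counting is not given in the sources used here. Groups were taken from the labels.

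The filter filterByExpr, given the groups, kept 17286 of 50686 genes. A quasi-likelihood model with 1 term per group was fitted to all 26 mice in edgeR 4.0.16 (R 4.3.3, legacy mode as in the authors' edgeR 3.22.0) with TMM factors. Cold within genotype, label within temperature and their interaction were tested, with Benjamini-Hochberg adjustment. A prior count of 2 was used for log2 CPM. The SE is the absolute log2 fold change divided by the square root of F. The steps were tested on simulated data. All 73 pairs of mice within a group differed by more than sampling noise (lowest chi-square per gene 5.17).

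Gene positions, lengths and overlaps were taken from GENCODE M21. The members and lists were chosen with earlier results of these data known. From each list the 3 genes with the largest change with cold in control mice are named, provided that they passed the threshold, averaged 1 CPM or more and had no overlap between groups. For each member the 3 genes most like it are named. Pparg, Ddit3 and Stat5b were named after their values were seen. Alternatives were DESeq2 1.42.0, library size alone, upper-quartile factors, other filters, the revised method, robust estimation, only the groups compared, and leaving out each mouse.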

Additional observations from a re-analysis of the deposited data

Results flagged for a closer look

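The level of Klf6 in the mouse KO5-27, 306 CPM, was far from those of the other 6 mice labelled KO after cold, which ran from 85.5 to 161 CPM. It was the only far sample among 40 groups of values checked (10 members in 4 groups), and chance alone marks about 1 in 20 groups.

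The cold response of Cebpa differed between the genotypes, by 0.47 on the log2 scale, as tested by the interaction term of edgeR's model. The fall was smaller in the mice labelled KO. The call was near its threshold (Benjamini-Hochberg adjusted p = 0.0428 by edgeR's quasi-likelihood test). It was lost in 19 of 26 fits that left out 1 mouse, with library size alone and with no filter on low counts.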

How the results depend on the processing

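The count of members past the threshold for cold ran from 7 to 8 when 1 mouse was left out (8 without WT30-4 in control mice and without KO30-10 in the KO label) and was 7 in each genotype under every other setting tried. With library size alone the 7 in the KO label held Klf3 in place of Cebpg (0.11). For the KO label after cold it was 1 with DESeq2 in place of 0. For the difference of the cold responses it was 0 with library size alone and 0 with no filter in place of 1, and 0 to 1 when 1 mouse was left out. No called member changed direction. With library size alone the median of all genes moved to -0.14 and -0.34 for cold in control mice and the KO label, 0.13 and -0.03 for the label at 30 °C and 5 °C, and -0.15 for the difference. With upper-quartile factors it moved to -0.12 and -0.18 for cold.

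Signs turned only for members that had not passed. With library size alone these were Klf3 with cold in the KO label (-0.31), Cebpb (0.032), Cebpg (0.10) and Klf6 (0.074) for the label at 30 °C, Klf4 (-0.024) for the label at 5 °C and Cebpb (-0.13) for the difference. Klf3 with cold in the KO label was also at -0.15 with upper-quartile factors, -0.0514 with at least 10 counts in every mouse and -0.0294 with only the groups compared, and the difference of Cebpb at -0.00909 with upper-quartile factors. Leaving out 1 mouse gave -0.038 to 0.055 for Klf3 with cold in the KO label. For the label at 30 °C it gave -0.24 to 0.047 for Cebpb, -0.0078 to 0.0503 for Klf3 and -0.044 to 0.12 for Klf15, and at 5 °C -0.14 to 0.032 for Cebpb, -0.0397 to 0.15 for Klf4 and -0.13 to 0.24 for Klf6. For the difference it gave -0.094 to 0.20 for Cebpb and -0.041 to 0.34 for Klf6. The causes were not tested.

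No paired analysis was possible because the groups share no replicate numbers. Depth limits Klf5, with at most 5 reads in a mouse.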
